A study of Mus musculus with 6 samples.

Results

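Interferon-stimulated genes are the genes that a cell switches on when it senses interferon, and 37 of them with a known part in antiviral defence were read here in the livers of control mice and of mice that lack Mttp, a gene needed to load dietary fat into chylomicrons, in the gut (*Mttp-IKO*). The genes were taken by symbol from a list sorted by role, 3 transcription factors, 5 sensors of foreign nucleic acid and 29 effectors, and all 37 were found among the 41388 genes counted. The list was chosen with earlier results of these data known, so shares of it set beside those of all genes are a description only. The 11 that passed the test for a difference, 29.7% of the 37, were all lower in the *Mttp-IKO* pools, and none was higher. Of all genes tested 3.09% passed as lower and 0.92% as higher. None of the 37 passed when control pool 1, control pool 3 or *Mttp-IKO* pool 2 was left out. In those fits 24, 21 and 0 of all genes tested passed. With all pools, the lowest shares of the control level were those of Ifi27l2a, at 15.5%, and Isg15, at 21.5%, both short genes whose order among the 37 changed without *Mttp-IKO* pool 3, which held little short RNA.

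Type I interferons bind a receptor made of IFNAR1 and IFNAR2, and the kinases JAK1 and TYK2 then act on STAT proteins. STAT2 joins IRF9 in ISGF3, a factor that binds a short DNA element, the interferon-stimulated response element (ISRE), near the start of its target genes. The products include the sensors that started the response, IRF7, which drives more interferon transcription, and effectors that degrade viral RNA, stop its translation or hold virus at membranes. In liver both hepatocytes and resident and recruited immune cells respond to interferon.

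Liver RNA of male C57BL/6 mice was measured by RNA-Seq in 3 control and 3 *Mttp-IKO* pools. A pool joined RNA of 3 to 4 mice, although the labels speak of 12 livers. By the study's methods all mice carried Mttp f/f and Villin Cre ER T2, so both groups held the floxed alleles and the Cre, and the labels call the controls wild type. *Mttp-IKO* mice received tamoxifen on 5 days and control littermates received vehicle, so an effect of tamoxifen itself cannot be told apart from that of the deletion. All mice, 12 to 16 weeks old, were fed a methionine/choline-deficient (MCD) diet for 3 weeks, starting 3 weeks after the injections, and were fasted for 4 h, so no group shows these genes without the diet. The Villin promoter drives Cre in the intestinal epithelium, and liver Mttp, the lipid transfer protein gene that was deleted in the gut, is not the target. Liver Mttp stood at 90.4, 186 and 175 CPM in the control livers and 145, 129 and 161 CPM in the *Mttp-IKO* livers (log2 fold change -0.06 ± 0.272 SE, adjusted p = 0.926), which is no check of the labels.

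Values are CPM, the reads of a gene relative to all reads on genes in the pool, scaled by edgeR's TMM factors. A fold change sets *Mttp-IKO* against control on a log2 scale, with the standard error (SE) after the sign ± and the adjusted p of edgeR's quasi-likelihood test over all 17287 genes tested. A gene is called lower or higher at an adjusted p under 0.05. The pools held 25271585 to 36238734 reads on genes, and 3 reads stood for 0.0828 to 0.119 CPM before scaling by the TMM factors. The pools of 1 genotype differ by mixtures of mice, so p values measure the spread between pools, which understates that between mice. The hepatocyte gene Alb read 40131 to 132236 CPM in the 6 pools. Control pool 2 read high for striated muscle genes, 5 of which summed to 553 CPM against 0.875 and 66.5 CPM in the other controls and 0.461 to 1.03 CPM in the *Mttp-IKO* pools. *Mttp-IKO* pool 3 held little short RNA, where small RNA genes took 0.634% of the reads (3.60% to 5.27% elsewhere) and coding genes under 1000 nt took 1.70% (3.64% to 3.86% elsewhere). Both pools are named below for many of the values that rest on them, though not for all.

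All 37 genes passed the filter on low counts. Of all genes tested, 4.01% were called, 3.09% as lower and 0.92% as higher. Of the 37, 11 (29.7%) were called, 35 had a negative fold change where 49.5% of all genes did, and 26 were at an unadjusted p under 0.05 where 23% of all genes were. Their median log2 fold change was -0.94, with a range of -2.67 to 0.02, and the median of all genes tested was 0.01. In 23 of the 37 every *Mttp-IKO* pool lay below every control pool, where 16.5% of all genes did so, in 14 the groups overlapped, and in none did every *Mttp-IKO* pool lie above. With 3 pools against 3 an exact two-sided permutation test of a single value cannot give a p under 0.1, so the calls rest on edgeR's spread shared between genes.

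The calls depended on which pools were in the fit. Without control pool 1, control pool 3 or *Mttp-IKO* pool 2, 0 of the 37 were called at the adjusted threshold, while 17, 22 and 21 stayed at an unadjusted p under 0.05, and 24, 21 and 0 of all genes tested were called. The counts of all genes at an unadjusted p under 0.05 in these fits were 2476 of 17652, 2539 of 17869 and 3221 of 17873. Without *Mttp-IKO* pool 1, 2 were called, Irf7 and Isg15, beside 0.307% of all genes. Without control pool 2, 13 were called beside 5.02% of all genes, and without *Mttp-IKO* pool 3, 11 beside 4.84%. Without control pool 2 and *Mttp-IKO* pool 3 together, a choice made after their make-up was seen, 23 of the 37 were called, beside 12.3% of all genes. The median log2 fold change of the 37 lay between -1.11 and -0.80 when single pools were left out.

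**Figure D1:**
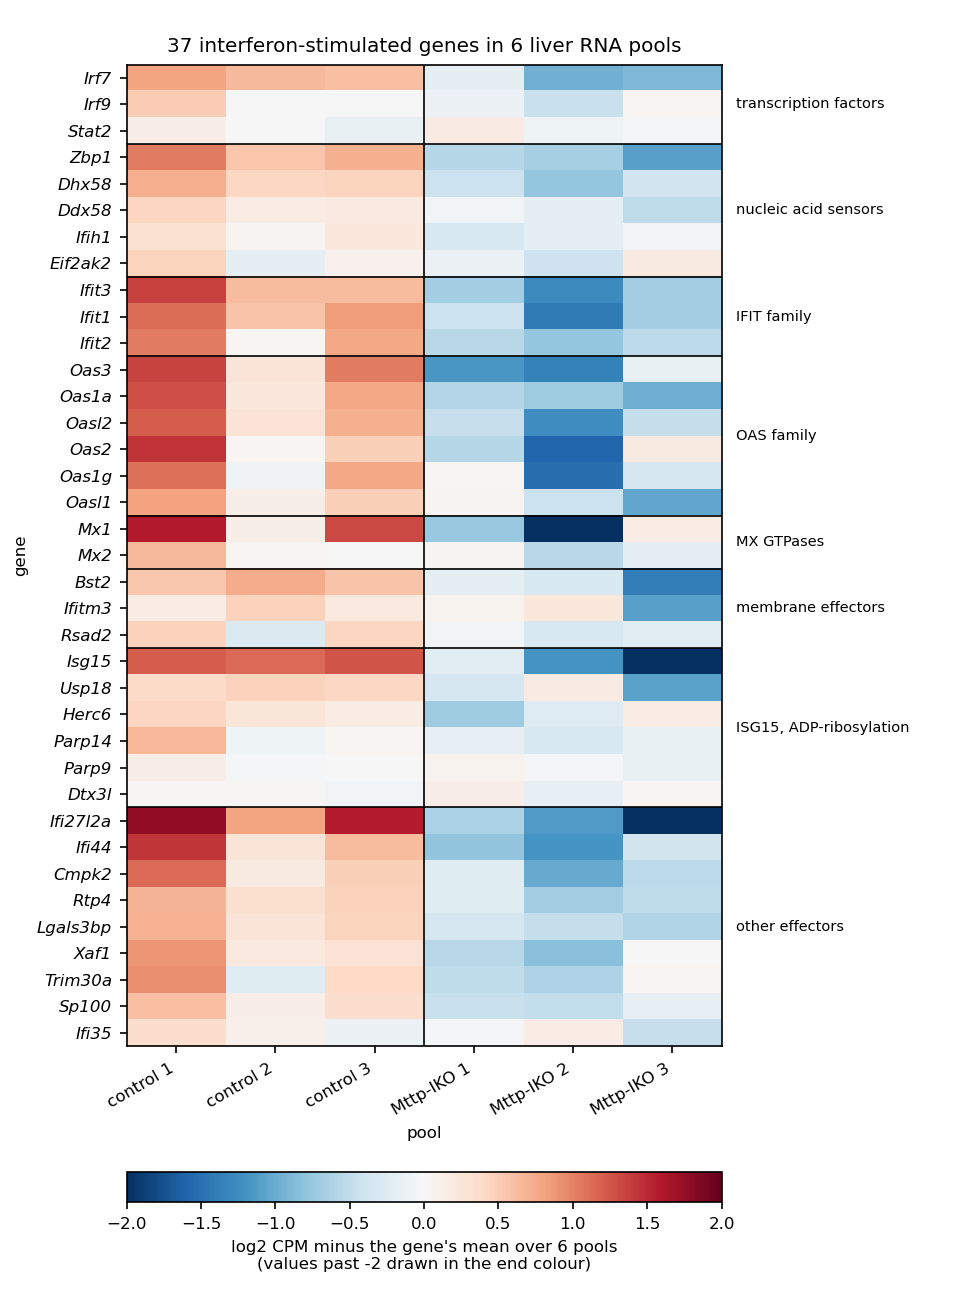
Heat map of the 37 interferon-stimulated genes (vertical axis, grouped by role) in each of the 6 liver RNA pools (horizontal axis), coloured by log2 CPM minus the gene's mean over the 6 pools. Control pool 1 is the highest of the 6 for 31 genes, and *Mttp-IKO* pool 2 the lowest for 22.

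The pools of each group were not alike. Control pool 1 was the highest of all 6 for 31 of the 37 genes, and control pool 2 was the lowest of the 3 controls for 28. Among all 6, *Mttp-IKO* pool 2 was the lowest for 22 genes and *Mttp-IKO* pool 3 for 12. With each gene centred on its mean over the 6 pools, the 37 averaged 0.81, 0.23 and 0.47 log2 CPM in control pools 1 to 3 and -0.32, -0.69 and -0.50 in *Mttp-IKO* pools 1 to 3. Control pools 1 and 2 were thus 0.57 apart, and the *Mttp-IKO* pools spanned 0.37.

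Promoter sequence was read because ISGF3 acts through it. The RefSeq promoter table of the GRCm38.p6 build gave 300 bases, 250 before and 50 after the start, for 27 of the 37 genes and 27025 genes in all. An ISRE core, searched on both strands as GAAA, any 2 bases and GAAA again, was found in 14 of the 27 (51.9%) and in 3.99% of all promoters. In 10 of the 14 a core lay wholly before the start. In Ifih1, Ddx58, Ifitm3 and Eif2ak2 cores lay only after the start. The 9 stretches of 60 bases shown run 5′ to 3′ along the gene's strand, with the matched letters in capitals.
Isg15: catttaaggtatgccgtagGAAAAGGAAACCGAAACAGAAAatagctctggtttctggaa
Ifit1: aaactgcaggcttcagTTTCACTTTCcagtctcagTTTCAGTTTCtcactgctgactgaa
Ifit3: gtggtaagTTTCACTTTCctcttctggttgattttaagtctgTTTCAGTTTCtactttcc
Oas1a: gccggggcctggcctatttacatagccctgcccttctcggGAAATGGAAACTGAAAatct
Oas1g: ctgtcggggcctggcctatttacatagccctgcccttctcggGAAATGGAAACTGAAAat
Oas3: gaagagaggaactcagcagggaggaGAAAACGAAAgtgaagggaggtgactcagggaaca
Bst2: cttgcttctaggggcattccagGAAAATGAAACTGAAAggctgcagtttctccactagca
Rsad2: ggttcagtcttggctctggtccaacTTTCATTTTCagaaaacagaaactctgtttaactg
Stat2: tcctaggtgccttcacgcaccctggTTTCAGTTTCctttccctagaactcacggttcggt
The first 4 belong to the genes called lower that held a match, and the other 5 to genes that held one and were not called. They lie at chr4:156200856-156200915, minus strand (Isg15), chr19:34640769-34640828, plus strand (Ifit1), chr19:34583365-34583424, plus strand (Ifit3), chr5:120907526-120907585, minus strand (Oas1a), chr5:120887614-120887673, minus strand (Oas1g), chr5:120777700-120777759, minus strand (Oas3), chr8:71537565-71537624, minus strand (Bst2), chr12:26456538-26456597, minus strand (Rsad2) and chr10:128270251-128270310, plus strand (Stat2).

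The Isg15 stretch runs from 97 to 38 bases before the start and holds 3 overlapping cores. Those of Oas1a and Oas1g end just before the start and hold the same 2 overlapping cores. Ifit1 and Ifit3 each held 2 cores in the reverse direction. Stat2 held 1 core, farther from the start than the others shown. Calls were found both with and without a core. Of the 14 genes with a match 4 were called and their median log2 fold change was -0.97, and of the 13 with a window and no match 3 were called and the median was -0.92. A gamma-activated site, searched as TTC, any 3 bases and GAA, which reads the same on both strands and can overlap an ISRE core, was found in 6 of the 27 (22.2%) and in 9.55% of all promoters, and 4 genes held both. No promoter window was given for Parp14, Dhx58, Ifi27l2a, Oas2, Mx2, Mx1, Zbp1, Parp9, Usp18 and Rtp4.

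Of the 3 transcription factors, Irf7 fell and the ISGF3 subunits Irf9 and Stat2 were not called. Irf7 (ENSMUSG00000025498, chr7:141262706-141266481, minus strand), the factor that drives transcription of the interferon genes, stood at 60.7, 55.2 and 53.1 CPM in control pools 1 to 3 and at 31.04, 17.97 and 18.8 CPM in *Mttp-IKO* pools 1 to 3. The groups were apart, the highest *Mttp-IKO* pool being pool 1. The means were 56.4 ± 3.93 and 22.6 ± 7.32 CPM (SD, n = 3 pools each), 40.1% of control, with a log2 fold change of -1.32 ± 0.228, adjusted p = 0.0285. Irf7 was also 1 of the 2 calls kept without *Mttp-IKO* pool 1. Irf9, the DNA-binding subunit of ISGF3, read 37.1, 26.5 and 26.5 CPM in the controls and 24.1, 19.2 and 27.1 CPM in the *Mttp-IKO* pools (-0.36 ± 0.201, adjusted p = 0.327), and *Mttp-IKO* pool 3 lay above control pools 2 and 3. Stat2, which carries the activating domain, read 63.00, 57.2 and 51.9 CPM and 64.3, 54.4 and 56.2 CPM, the groups lying within each other (0.02 ± 0.149, adjusted p = 0.946). Its sign turned under other scalings, and its promoter held an ISRE core.

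The 5 sensors all had negative fold changes and 2 of them fell, where 49.5% and 3.09% of all genes tested did. Zbp1 (ENSMUSG00000027514, chr2:173206612-173218923, minus strand), which binds left-handed nucleic acids and can start cell death, read 16.9, 12.01 and 13.4 CPM in the controls and 5.48, 5.14 and 3.82 CPM in the *Mttp-IKO* pools. The lowest control stood above every *Mttp-IKO* pool by more than the controls differed from each other, and the mean fell from 14.1 ± 2.52 to 4.81 ± 0.879 CPM (SD, n = 3; log2 fold change -1.55 ± 0.219, adjusted p = 0.0181), the lowest adjusted p of the 37. Dhx58 (ENSMUSG00000017830, chr11:100694884-100704271, minus strand), or LGP2, a helicase that tunes the other RNA helicases and has no signalling domain of its own, read 9.79, 7.93 and 8.06 CPM and 4.38, 3.43 and 4.53 CPM, again without overlap. Its log2 fold change was -1.06 ± 0.206, adjusted p = 0.0358. An antisense gene overlaps 4.31% of its exon bases, and the strand setting of the counts is not stated, so reads of the pair cannot be told apart there.

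The signalling helicases had smaller fold changes. Ddx58, or RIG-I, which senses RNA ends, read 37.5, 30.7 and 31.6 CPM in the controls and 26.9, 24.1 and 19.4 CPM in the *Mttp-IKO* pools (-0.50 ± 0.172, adjusted p = 0.137). Ifih1, or MDA5, which senses long double-stranded RNA, read 48.1, 40.8 and 45.3 CPM and 31.4, 34.1 and 37.5 CPM (-0.38 ± 0.145, adjusted p = 0.169). Neither gene's groups overlapped, and neither was called. Eif2ak2, or PKR, the kinase that stops translation on double-stranded RNA, overlapped between groups (-0.24 ± 0.227, adjusted p = 0.561).

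The IFIT proteins bind viral RNA and block its translation, and their genes lie together on chromosome 19. All 3 were apart between the groups, where 16.5% of all genes tested were lower without overlap. Of the 3, 2 were called lower, where 3.09% of all genes tested were. Ifit1 (ENSMUSG00000034459, chr19:34640871-34650009, plus strand) read 10.6, 7.24 and 8.65 CPM in the controls and 3.58, 1.78 and 2.98 CPM in the *Mttp-IKO* pools, 31.5% of control (-1.66 ± 0.295, adjusted p = 0.0293). Ifit3 (ENSMUSG00000074896, chr19:34583531-34588731, plus strand) read 17.5, 10.4 and 10.5 CPM and 4.19, 2.74 and 4.15 CPM, 28.9% of control (-1.79 ± 0.285, adjusted p = 0.0223). In both genes *Mttp-IKO* pool 2 was the lowest, and in Ifit3 control pools 2 and 3 were nearly equal while control pool 1 stood above them. Ifit2 read 8.46, 4.24 and 7.12 CPM and 2.80, 2.40 and 2.85 CPM, with a narrow spread in the *Mttp-IKO* pools and a wide one in the controls, and its adjusted p of 0.0502 lay next to the threshold (-1.30 ± 0.290). Of the 50-base words of Ifit3 transcripts 51.2% also occur in its copy Ifit3b, so uniquely aligned reads cover only part of it. Ifit3b, counted apart, also fell (-1.95 ± 0.299, adjusted p = 0.0202).

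The OAS enzymes make short oligoadenylates that switch on RNase L. Of the 6 OAS genes, all on chromosome 5, 2 were called lower, where 3.09% of all genes tested were. Oas1a (ENSMUSG00000052776, chr5:120896256-120907521, minus strand) read 11.6, 5.52 and 8.15 CPM in the controls and 3.13, 2.88 and 2.39 CPM in the *Mttp-IKO* pools, and the mean fell to 33.2% of control (-1.59 ± 0.301, adjusted p = 0.0340). Oasl2 (ENSMUSG00000029561, chr5:114896936-114912234, plus strand), an OAS-like protein, read 23.7, 12.3 and 16.6 CPM and 7.38, 4.25 and 7.30 CPM (-1.48 ± 0.306, adjusted p = 0.0423). In both genes control pool 2 was the lowest control and still above every *Mttp-IKO* pool. Both calls, with that of Rtp4, were lost when *Mttp-IKO* pool 3 was left out. Oas3 had a larger fold change than either, from 13.1, 6.16 and 10.6 CPM to 2.26, 1.95 and 4.61 CPM, with a wider spread and an adjusted p of 0.0526 (-1.77 ± 0.401). Oasl1, known to restrain IRF7 translation, read 27.1, 16.8 and 21.4 CPM and 16.1, 11.5 and 7.51 CPM (-0.89 ± 0.296, adjusted p = 0.128). Oas1g and Oas2 overlapped between groups, with log2 fold changes of -1.18 and -1.29 and adjusted p of 0.187 and 0.174. Oas1a shares 57.6% of its 50-base words with Oas1g, so the split of reads between these neighbours, 8642 bases apart, is uncertain.

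The MX GTPases trap viral nucleocapsids, and neither Mx1 nor Mx2 was called. Mx1 was scarce, at 5.33, 1.89 and 4.40 CPM in the controls and 0.999, 0.274 and 1.93 CPM in the *Mttp-IKO* pools. *Mttp-IKO* pool 3 stood above control pool 2, and the estimate was both large and loose (-1.88 ± 0.640, adjusted p = 0.137). Mx2 read 7.34, 4.77 and 4.65 CPM and 4.87, 3.16 and 4.11 CPM (-0.47 ± 0.273, adjusted p = 0.345), *Mttp-IKO* pool 1 lying above control pools 2 and 3, and the deposited annotation gives it as a polymorphic pseudogene.

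The membrane group held the most abundant of the 37 and no call. Ifitm3, which keeps virus from fusing with endosomes, had the highest level per length at 545 RPKM in the controls, and Bst2, or tetherin, which ties budding virus to the cell surface, the next at 133 RPKM. Bst2 read 96.3, 111 and 98.5 CPM in the controls and 58.3, 53.3 and 25.3 CPM in the *Mttp-IKO* pools (-1.16 ± 0.292, adjusted p = 0.0684). All *Mttp-IKO* pools lay below all controls, and *Mttp-IKO* pool 3 lay far below the other *Mttp-IKO* pools. Ifitm3 read 339.7, 419 and 350.3 CPM and 319.9, 356 and 144 CPM (-0.44 ± 0.320, adjusted p = 0.452), with *Mttp-IKO* pool 2 inside the control range and *Mttp-IKO* pool 3 apart. Rsad2, or viperin, which makes a nucleotide that ends viral RNA chains, overlapped between groups (-0.43 ± 0.226, adjusted p = 0.295).

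The short transcripts needed a separate reading, since *Mttp-IKO* pool 3 held few reads from short genes. Coding genes under 1000 nt stood at a median of -1.26 log2 units in *Mttp-IKO* pool 3 against the other *Mttp-IKO* pools, and the 4 members of that length, Isg15 (756 nt), Bst2 (764 nt), Ifitm3 (678 nt) and Ifi27l2a (463 nt), at a median of -1.35. The 16 longest members stood at 0.32. Without *Mttp-IKO* pool 3 the log2 fold changes were -1.85 for Isg15 (adjusted p = 0.0270, edgeR), -2.32 for Ifi27l2a (0.0235), -0.87 for Bst2 (0.0208) and -0.13 for Ifitm3 (0.616). With each pool's trend against gene length removed they were -2.12 for Isg15 (0.0255), -2.57 for Ifi27l2a (0.0211), -1.06 for Bst2 (0.0385) and -0.34 for Ifitm3 (0.448). Isg15 and Ifi27l2a stayed called in both fits, Bst2 passed the threshold in both, and Ifitm3 in neither. Without *Mttp-IKO* pool 3 the order of the 37 also changed, with Mx1 lowest at -2.59 (adjusted p = 0.0707), then Ifi27l2a and Oas3 at -2.24 (0.0262), and with Ifit3 and Ifi44 below Isg15.

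**Figure D2:**
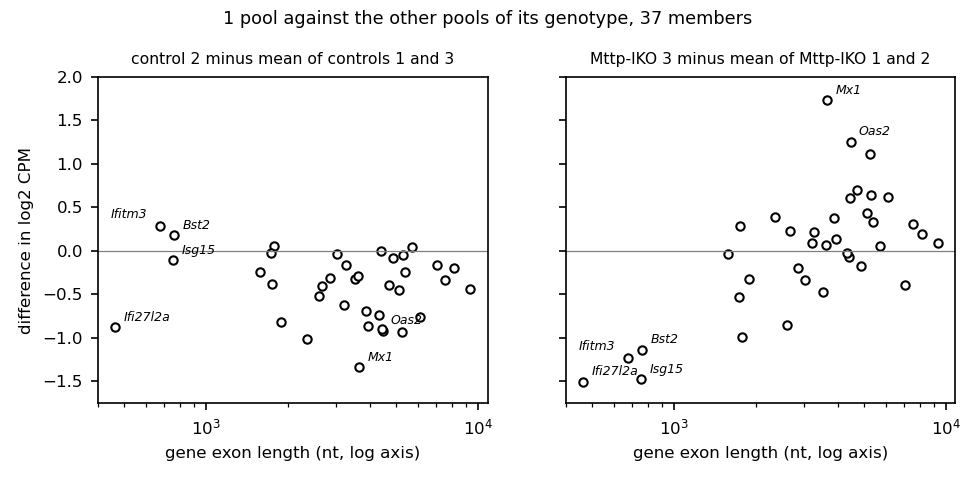
Difference in log2 CPM (vertical axis) between 1 pool and the mean of the other pools of its genotype, for control pool 2 (left) and *Mttp-IKO* pool 3 (right), against gene exon length in nt (log axis), with 1 point for each of the 37 genes. In *Mttp-IKO* pool 3 the 4 genes under 1000 nt all lie low, and in control pool 2 most of the longer genes lie below 0.

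Of the ISG15 and ADP-ribosylation genes only Isg15 itself was called. Isg15 (ENSMUSG00000035692, chr4:156199424-156200818, minus strand), a ubiquitin-like protein joined to other proteins during the response, read 10.3, 9.73 and 10.6 CPM in the controls and 3.77, 1.89 and 0.923 CPM in the *Mttp-IKO* pools. The controls agreed closely, at 10.2 ± 0.451 CPM, and the *Mttp-IKO* pools spread widely, at 2.19 ± 1.45 CPM (SD, n = 3), so that 21.5% of the control level was left (-2.20 ± 0.431, adjusted p = 0.0364). The call was lost without control pool 2, at a log2 fold change of -2.25 (adjusted p = 0.0538). Usp18, which removes ISG15 and also restrains the interferon receptor, read 20.7, 21.7 and 20.96 CPM and 12.5, 17.7 and 7.47 CPM without overlap (-0.75 ± 0.283, adjusted p = 0.169). Herc6, the mouse ligase for ISG15, touched the control range (-0.52 ± 0.236, adjusted p = 0.235).

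The 3 ADP-ribosylation genes lie close together on chromosome 16, and none was called. Dtx3l, the ubiquitin ligase that partners PARP9, read 71.04, 71.6 and 67.7 CPM in the controls and 76.5, 62.8 and 71.98 CPM in the *Mttp-IKO* pools (0.01 ± 0.143, adjusted p = 0.984). The groups lay within each other, and the sign turned under other scalings. Parp9 stood at a log2 fold change of -0.06 (adjusted p = 0.818), and 458 exon bases of the pair overlap on opposite strands. Parp14, an ADP-ribosyltransferase, read 74.2, 44.03 and 47.9 CPM and 41.8, 38.03 and 42.3 CPM, with no overlap and with control pool 1 far above the rest (-0.45 ± 0.213, adjusted p = 0.259).

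The remaining 9 genes held 3 calls, all lower, where 3.09% of all genes tested were called lower. Ifi27l2a (ENSMUSG00000079017, chr12:103442167-103443680, minus strand), which encodes a very short hydrophobic protein, read 16.1, 8.10 and 13.9 CPM in the controls and 2.97, 2.09 and 0.839 CPM in the *Mttp-IKO* pools. The mean fell from 12.7 ± 4.12 to 1.97 ± 1.07 CPM (SD, n = 3; log2 fold change -2.67 ± 0.446, adjusted p = 0.0248), and the lowest control was above the highest *Mttp-IKO* pool by a wide margin. Lgals3bp (ENSMUSG00000033880, chr11:118392751-118402092, minus strand), a secreted galectin-binding glycoprotein and the 3rd most abundant of the 37 per length, read 231, 171 and 195 CPM and 113, 103 and 94.3 CPM. Its *Mttp-IKO* pools lay close together at 51.9% of control (-0.94 ± 0.176, adjusted p = 0.0328). Rtp4 (ENSMUSG00000033355, chr16:23609919-23614222, plus strand), a receptor chaperone that also limits some viruses, read 11.1, 8.68 and 9.50 CPM and 5.80, 4.22 and 4.82 CPM (-0.98 ± 0.203, adjusted p = 0.0425). Its call was lost with the length trend removed, at -0.85 (adjusted p = 0.0599), and in 2 further fits with all pools.

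Of the other 6, none was called and 4 were lower without overlap between groups, where 16.5% of all genes tested were. Ifi44 read 6.94, 3.08 and 4.00 CPM in the controls and 1.45, 1.10 and 1.97 CPM in the *Mttp-IKO* pools, with the lowest RPKM of the 37 (-1.64 ± 0.381, adjusted p = 0.0560). Sp100, a component of nuclear bodies, read 30.5, 22.1 and 25.6 CPM and 14.7, 14.3 and 17.95 CPM (-0.74 ± 0.181, adjusted p = 0.0639). Both lay just outside the threshold with all *Mttp-IKO* pools below all controls. Cmpk2, a mitochondrial nucleotide kinase encoded beside Rsad2 in the opposite direction, read 9.67, 4.96 and 6.12 CPM and 3.71, 2.16 and 3.02 CPM (-1.22 ± 0.321, adjusted p = 0.0749). Xaf1, which promotes cell death by opposing XIAP, read 11.03, 6.82 and 7.28 CPM and 4.03, 3.29 and 5.96 CPM (-0.92 ± 0.293, adjusted p = 0.116). Trim30a and Ifi35 overlapped between groups, with log2 fold changes of -0.78 and -0.22 and adjusted p of 0.194 and 0.589. An antisense gene covers 16.8% of the exon bases of Ifi35.

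**Figure D3:**
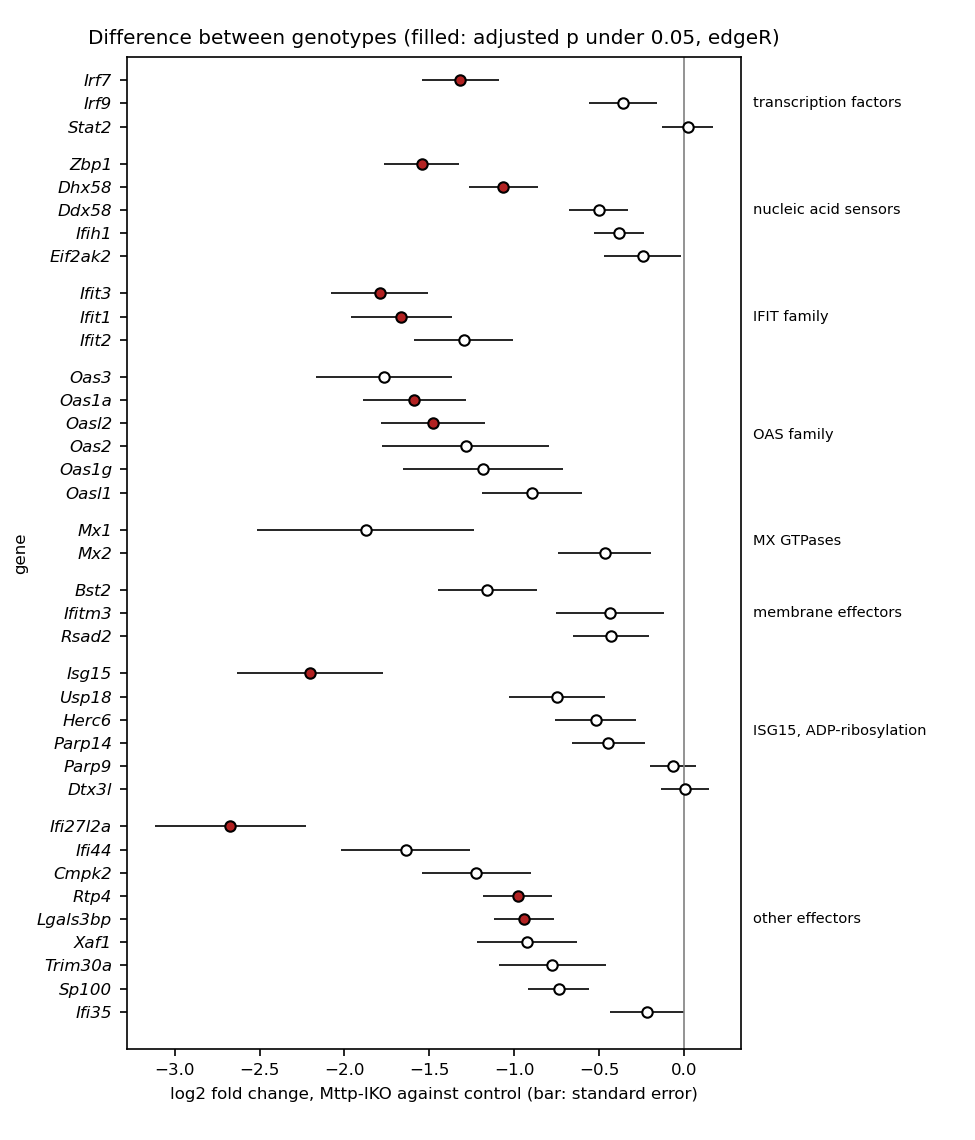
Log2 fold change of each of the 37 genes (vertical axis, grouped by role), *Mttp-IKO* against control (horizontal axis), with bars for the standard error. Filled points mark the 11 genes with an adjusted p under 0.05 in edgeR, all to the left of 0, and Stat2 and Dtx3l lie at 0.

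Neighbouring genes did not all share one fold change. Within the Ifit cluster the 3 lay between -1.79 and -1.30. On chromosome 5, the neighbours Oas1a, Oas1g, Oas2 and Oas3 lay between -1.77 and -1.18. Oasl1 and Oasl2, side by side at a separate place on that chromosome, stood at -0.89 and -1.48. Rsad2 and Cmpk2, 12751 bases apart and read in opposite directions, stood at -0.43 and -1.22. Mx1 and Mx2, 72400 bases apart, stood at -1.88 and -0.47. The differences within these pairs were not tested. The fold change and the level of a gene were weakly related, with Pearson's r of 0.106 and Spearman's rho of 0.200 between log2 control RPKM and log2 fold change across the 37 genes, which share pools and are not independent. Of the 18 genes with the higher control RPKM 6 were called and the median log2 fold change was -0.63, and of the other 19, 5 were called and the median was -1.22.

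Pool by pool, the IFIT and OAS families were farther apart between genotypes than the sensors or the transcription factors. With each gene centred on its own mean, the IFIT genes averaged 1.17, 0.41 and 0.75 log2 CPM in control pools 1 to 3 and -0.55, -1.15 and -0.63 in *Mttp-IKO* pools 1 to 3, a difference of -1.55. The OAS genes averaged 1.20, 0.14 and 0.71 in the controls and -0.45, -1.14 and -0.46 in the *Mttp-IKO* pools, a difference of -1.37. The sensors averaged 0.59, 0.20 and 0.33 against -0.30, -0.45 and -0.37, a difference of -0.74. The transcription factors, of which Irf7 gives most of the distance, averaged 0.47, 0.22 and 0.15 against -0.05, -0.50 and -0.30, a difference of -0.56.

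The other roles lay between these. The differences were -1.23 for the MX genes, -1.11 for the remaining effectors, -0.72 for the membrane effectors and -0.71 for the ISG15 and ADP-ribosylation genes. In every role the lowest control pool stood above the highest *Mttp-IKO* pool. The MX genes came closest, at 0.07 in control pool 2 and -0.01 in *Mttp-IKO* pool 3. The same pools did not lead everywhere. *Mttp-IKO* pool 2 was the lowest for 6 of the 8 roles, the IFIT, OAS and MX genes among them, and *Mttp-IKO* pool 3 for the membrane and ISG15 groups, which hold 3 of the 4 genes under 1000 nt. The groups hold 2 to 9 genes each, and the differences between roles were not tested.

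**Figure D4:**
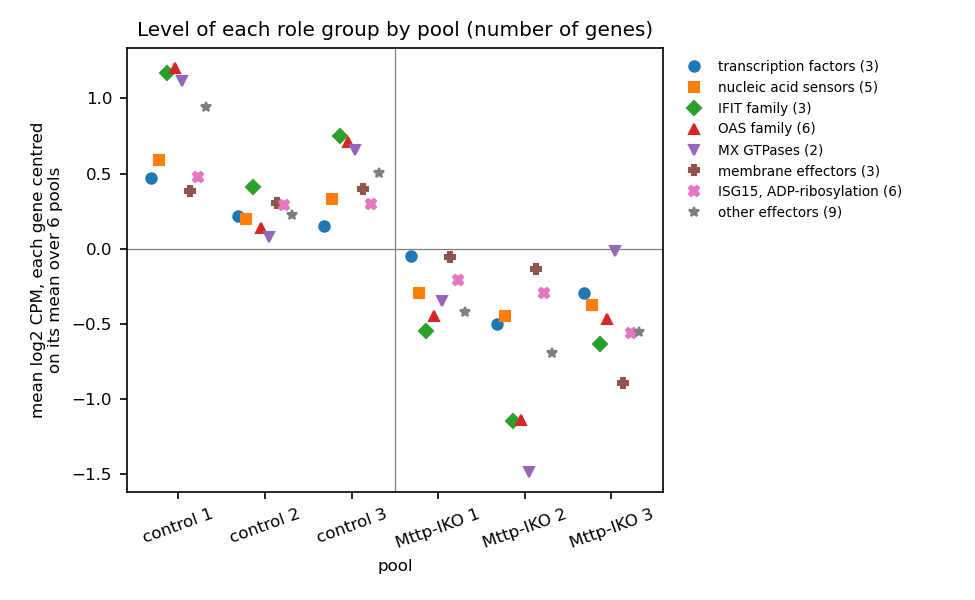
Mean log2 CPM of each role group (vertical axis, each gene centred on its mean over the 6 pools) in each pool (horizontal axis), 1 symbol for each of the 8 roles with its number of genes. The control pools lie above 0 for every role, and the IFIT, OAS and MX genes spread the most between pools.

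The rest of the pathway was read from a list of 119 further genes, of which 117 were in the table and 95 passed the filter. Of these 95, 8 fell and 1 rose (9.47%), 81 had a negative fold change, and the median was -0.53 against -0.94 for the 37. Of all genes tested 4.01% were called, 49.5% had a negative fold change, and the median was 0.01. The interferon genes themselves were nearly without reads. Of 21 ligand genes 16, Ifnb1 among them, had 0 reads in every pool. Before scaling by the TMM factors that allows up to 0.119 CPM a gene in the shallowest pool. The Ifna genes are close copies of each other, and reads that align to several places were not counted. Ifnk alone was tested, at 0.744, 0.804 and 0.750 CPM in the controls and 1.71, 1.78 and 3.57 CPM in the *Mttp-IKO* pools (1.61 ± 0.376, adjusted p = 0.0569), higher in every *Mttp-IKO* pool and not called.

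None of the 6 receptor genes and none of the 5 kinase and STAT genes was called. The receptor chains Ifnar1 and Ifnar2 stood at log2 fold changes of -0.07 (adjusted p = 0.828) and -0.17 (0.578). Of the other interferon regulatory factors, Irf8, which marks myeloid and plasmacytoid dendritic cells, fell from 43.5, 20.9 and 34.2 CPM to 14.4, 12.3 and 12.9 CPM (-1.32 ± 0.261, adjusted p = 0.0378). Irf1 stood at -0.61 (0.190) and Irf3, which acts upstream of interferon, at 0.14 (0.639). Of the 15 upstream sensors and adaptors, Tlr9, the endosomal DNA sensor, fell from 9.10, 4.27 and 6.75 CPM to 2.32, 2.30 and 2.14 CPM (-1.57 ± 0.303, adjusted p = 0.0351) and the other 14 were not called.

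Among 54 further interferon-stimulated genes that were tested, 6 fell and 1 rose, 13% in all, where 4.01% of all genes tested were called. Beside Ifit3b, those that fell were Ifi27 (-1.25 ± 0.216, adjusted p = 0.0285), Samd9l (-0.96 ± 0.161, adjusted p = 0.0253), Slfn8 (-1.44 ± 0.313, adjusted p = 0.0478), Slfn9 (-1.83 ± 0.357, adjusted p = 0.0360) and Ly6e (-1.12 ± 0.232, adjusted p = 0.0423). Ly6e read 849, 583 and 724 CPM in the controls and 375, 364 and 253 CPM in the *Mttp-IKO* pools. Phf11c rose from 4.71, 8.62 and 6.15 CPM to 21.1, 63.9 and 104 CPM (3.28 ± 0.543, adjusted p = 0.0242), while its relative Phf11d, with which it shares 7.77% of its 50-base words, read 7.19, 3.60 and 4.31 CPM and 3.19, 2.98 and 4.53 CPM (-0.50 ± 0.319, adjusted p = 0.385). None of the 9 tested genes that restrain the response was called.

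**Figure D5:**
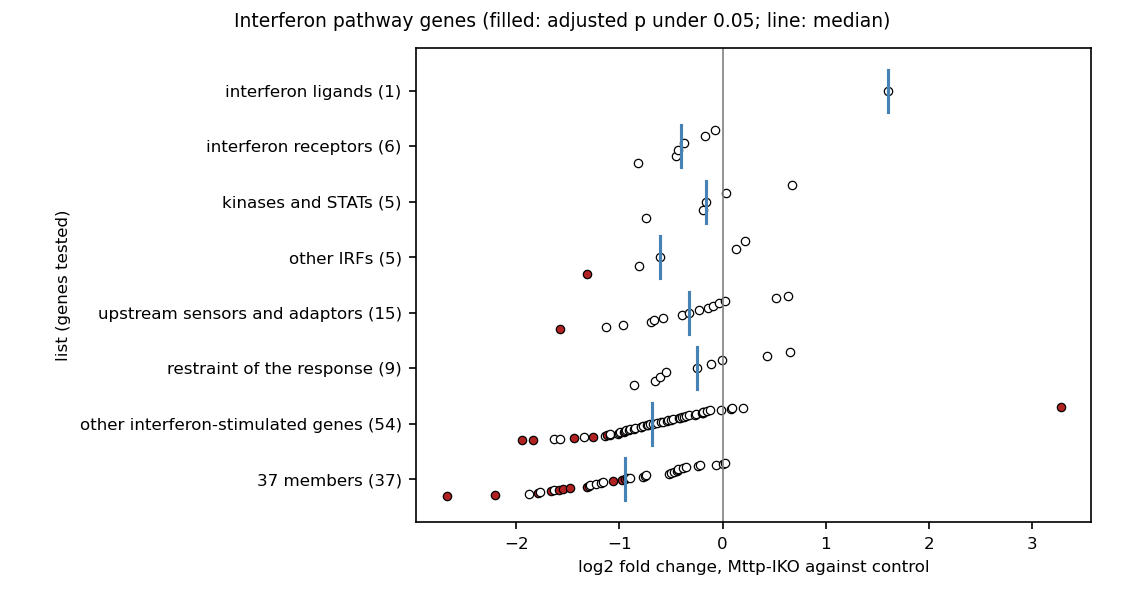
Log2 fold change, *Mttp-IKO* against control (horizontal axis), of the tested genes of each interferon pathway list and of the 37 genes (vertical axis, number of genes tested in brackets), 1 point a gene, filled where the adjusted p is under 0.05, with a line at the median. The median of the 37 is -0.94, that of the 54 other interferon-stimulated genes -0.69, and the point at 3.28 is Phf11c.

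In bulk liver RNA fewer cells of a type and less RNA per cell cannot be told apart, so the markers of other cell types are given beside these results. For the counts of markers, 3.09% of all genes tested fell, 0.92% rose, and 16.5% were lower without overlap between groups. Of 8 tested markers of recruited macrophages 5 fell, Cx3cr1, Ccr2, Itgax, Trem2 and Ly6c2, and the summed level of the 8 was 274 to 840 CPM in the controls and 114 to 184 CPM in the *Mttp-IKO* pools. The lowest control was pool 2, as it was for 28 of the 37 genes. Control pool 2 was also the lowest control in the sums for Kupffer, stellate, T and NK cells, cholangiocytes, neutrophils and small intestine. In the sums of the remaining lists it was not. Plasmacytoid dendritic cells, which make type I interferon in quantity, were marked by 5 tested genes of which 2 fell. Siglech read 5.06, 1.69 and 3.62 CPM in the controls and 0.322, 0.206 and 0.336 CPM in the *Mttp-IKO* pools (-3.58 ± 0.496, adjusted p = 0.0181), and the other was Klk1. The summed level of the 6 markers was 7.84 to 24.0 CPM against 2.19 to 2.64 CPM. The highest control is pool 2, where Cox6a2, also a muscle gene, gave 19.1 CPM. Cox6a2 gave 4.49 CPM in control pool 1 and 0.312 CPM in control pool 3. The part of these cells in the result was not tested.

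Of 9 Kupffer cell markers none fell and Timd4 rose (1.16 ± 0.242, adjusted p = 0.0425). Among the 9, 6 had a negative fold change and 3 a positive one, with a median of -0.28. C1qb was lower, and Timd4 higher, in every *Mttp-IKO* pool than in every control. The sums were 540.2 to 874 CPM in the controls and 361 to 827 CPM in the *Mttp-IKO* pools, the lowest being *Mttp-IKO* pool 3. Marco alone gave 253, 115 and 45.1 CPM in *Mttp-IKO* pools 1 to 3. The 6 endothelial markers held no call, at 335 to 398 CPM and 341 to 394 CPM. Of 6 stellate cell markers 3 fell, where 3.09% of all genes tested did, at sums of 639 to 783 CPM and 425 to 480.4 CPM. Des read 19.1, 68.1 and 12.5 CPM in control pools 1 to 3, pool 2 being the one high in striated muscle genes. The 8 hepatocyte markers held no call and 7 were positive, at 55211 to 88546 CPM and 108093 to 163664 CPM, without overlap. All 4 tested B cell markers were negative, with log2 fold changes of -1.78 to -1.27, though none was called. Among the 4, 3 were lower without overlap between groups, where 16.5% of all genes tested were. The 5 markers summed to 9.74 to 24.1 CPM in the controls and 3.52 to 7.61 CPM in the *Mttp-IKO* pools, without overlap. The part of these cells in the result was not tested either. No gene among the tested markers of T and NK cells (5), neutrophils (4) or cholangiocytes (5) was called. Among 5 small intestine markers Cdhr5 alone fell, with sums of 1383 to 2549 CPM and 891 to 2961 CPM, the lowest being *Mttp-IKO* pool 3. Most of each sum was Apoa4, at 1229 to 2391 CPM in the controls and 791 to 2878 CPM in the *Mttp-IKO* pools. No list had a marker at 0 in all pools.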

How the data were processed

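Liver RNA of 3 control and 3 *Mttp-IKO* pools was read by RNA-Seq after depletion of ribosomal RNA. The authors deposited counts of 41388 genes a pool, as uniquely aligned, unambiguous reads assigned by featureCounts 1.4.6-p5 after STAR 2.5.1a alignment to the Ensembl release 76 assembly (GRCm38). They also deposited CPM and RPKM, which follow from the counts and the deposited gene length. The strand setting is not given in the sources used here. Symbols come from the deposited count table of the series, which lists 40481 of the genes with identical counts. Its 276 repeated lines were left out. Every column of sample values was used.

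Samples were grouped by their labels. Genes passing edgeR's filterByExpr (minimum count 10, minimum total 15) were tested with edgeR 4.0.16 in R 4.3.3 (TMM, glmQLFit, glmQLFTest), with Benjamini-Hochberg adjustment over all 17287 genes and a threshold of 0.05. Levels are CPM scaled by TMM factors of 0.898 to 1.11, centred log2 levels used a prior count of 2, and RPKM divides the scaled CPM by gene length. The scripts were tested on simulated counts. No 2 pools of the same genotype were alike within sampling noise. Limits set by 3 reads cover counting error only.

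The 37 genes, their roles and the pathway and cell marker lists were chosen with earlier results of these data known. Pool values are given for every gene that was called or did not overlap between groups and, in each role, for the 2 of highest mean RPKM and the 2 of largest fold change. Of the pathway list, every called gene is named, with Ifnar1, Ifnar2, Ifnb1, Irf1 and Irf3, and 1 further gene of that rule is not reported here. Ifnk, Phf11d and the cell markers were named after their values were seen. Promoters are from RefSeq, and words shared between transcripts from GENCODE M21. Alternatives were other scalings (DESeq2 size factors, total counts, upper quartile), DESeq2 1.42.0, limma-voom (limma 3.58.1), no filter or a stricter one on low counts, only protein-coding genes, a block for the replicate number, each pool's loess trend (span 0.3) against gene length removed, and pools left out. Python 3.11.15 with matplotlib 3.10.9 made the figures.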

Additional observations from a re-analysis of the deposited data

How the results depend on the processing

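No gene of the 37 rose under any setting tried. Scaling to total counts moved the median log2 fold change of all genes from 0.01 to -0.17 and the share of lower calls from 77.1% to 89.0%, and called 17 of the pathway list. The DESeq2 Wald test called 1995 genes, 19 of the 37 and 28 of the pathway list, and limma-voom called 428 genes and 8 of the 37, without Oas1a, Oasl2 and Rtp4. Leaving out single pools gave 0 to 892 genes, 0 to 13 of the 37 and 0 to 14 of the pathway list, and leaving out control pool 2 and *Mttp-IKO* pool 3 together, chosen after seeing the data, gave 2146, 23 and 38. Fewer pools leave a test with less power, and 3 pools a genotype limit every call near the threshold. Stat2 turned negative with total counts (-0.16), the upper quartile (-0.0043), no filter (-0.0033) and single pools left out (-0.068 to 0.076). Dtx3l turned negative with total counts (-0.17), the upper quartile (-0.021), no filter (-0.019), the length trend removed (-0.0020), both pools left out (-0.0012) and single pools left out (-0.057 to 0.084). The cause was not tested.

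Pools of the same number deviated together with correlations of 0.139, 0.112 and 0.0070, and pools of different numbers with -0.125 to 0.0208. With 3 pools a genotype these values cannot decide whether the numbers pair the pools. *Mttp-IKO* pool 3 correlated best with control pool 2. With the replicate number as a block 592 genes and 12 of the 37 were called, 9 of them among the 11, without Dhx58 and Rtp4 and with Cmpk2, Mx1 and Oas3. The median log2 fold change of the 37 lay between -1.13 and -0.90 over the settings that kept all pools.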
